A study of Mus musculus with 8 samples.

Results

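Collagen chain genes encode the alpha chains that wind around each other, alike or mixed, into the triple helix of collagen. They were taken as every gene whose symbol is Col, a number, a and a number, which gave 42 genes with 83 probes on the array. Values on at least 3 arrays of each group were available for 39 of them, among 24030 measurements in all, and these 39 were tested. Of the 24030 measurements 17220 were named genes, and the rest were single features without 1 gene symbol. Shares over all measurements include both. They comprised 11 fibrillar collagens, 6 chains of basement membrane collagen IV and 22 other collagens. Col9a1 had values on 3 curcumin arrays and 2 control arrays, Col10a1 on 1 curcumin array and 4 control arrays, and Col12a1 on none, so these 3 genes were not tested. Col6a3, Col6a5 and Col21a1 were not analysed here.

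RNA came from colon tissue of 8 male mice that lack mdr1a (Abcb1a), a drug efflux transporter whose loss leads to colitis. The 4 curcumin mice ate AIN-76A, a purified rodent diet, to which 0.2% curcumin had been added, and the 4 control mice ate AIN-76A alone. Curcumin is a polyphenol from turmeric root. Both groups carried the mdr1a disruption. Swiss is the strain named for the mice of the control arrays. All arrays are labelled with an age of 7 weeks, but according to the series design monitoring ran until week 24. The series design describes the curcumin mice as low and the control mice as high in histological injury score, so diet and score cannot be told apart. RNA of each mouse, in Cy3, was hybridised to an Agilent array together with a reference RNA in Cy5.

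All values are log2 ratios of the mouse RNA and the reference as the authors deposited them, and differences are curcumin minus control. The labels do not state which channel is on top. The likely direction is mouse over reference, because liver markers had array medians of -3.05 to -2.51 in the curcumin group and -2.92 to -2.56 in the control group, and kidney markers -3.19 to -2.82 in the curcumin group and -3.02 to -2.48 in the control group, and colon is not a tissue in which liver and kidney transcripts abound. With reference over mouse, all signs given here would be opposite. The series design speaks of 1 reference RNA, whereas the channel labels call it colon of Swiss mice on the diet of each array, wild type for the control arrays. Abcb1a had log ratios between -0.39 and 0.05 in curcumin mice and between -0.67 and -0.43 in control mice (difference 0.37, SE 0.10, limma adjusted p = 0.081). A log ratio is relative to the reference for that gene, so levels of different genes were not compared. In bulk tissue, fewer cells of a type and less RNA per cell cannot be told apart.

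Fibrillar collagens assemble into the banded fibrils that give the gut wall its tensile strength, and fibroblasts and smooth muscle cells make most of them. Type I collagen mixes the products of Col1a1 and Col1a2, type III is made of Col3a1 alone, and type V, from Col5a1 and Col5a2, is built into type I fibrils and limits their width. Collagen IV forms the sheet of the basement membrane under epithelium and around vessels and muscle cells, and collagen XVIII (Col18a1) is a proteoglycan of the same zone, whose released end piece is endostatin. Fibrosis with excess fibrillar collagen is a known consequence of long-lasting colitis.

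Of the 39 collagen genes, 7 fell with curcumin and none rose. Over all measurements 2.63% fell and 2.10% rose, 4.73% together (limma, Benjamini-Hochberg adjusted p with a threshold of 0.05). At an unadjusted p under that threshold there were 16 collagen genes, beside 18.4% of all measurements. The 7 were Col18a1, Col1a2, Col5a2, Col1a1, Col4a1, Col3a1 and Col4a4. The values of the groups did not overlap in 14 collagen genes, beside 12.6% of all measurements in either direction. Of these, 13 were lower with curcumin, beside 7.21% of all measurements, and 1 was higher. The differences of 32 collagen genes lay below 0 and those of 7 above, where 56.2% of all measurements lay below 0.

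By the slide numbers in the labels, curcumin arrays 3 and 4 lay in a range apart, while curcumin arrays 1 and 2 shared a range with the 4 control arrays. Within the shared range the differences of the 7 genes were -1.32 for Col18a1, -0.80 for Col1a1, -1.43 for Col1a2, -0.61 for Col3a1, -0.67 for Col4a1, -0.56 for Col4a4 and -0.75 for Col5a2. They were close to those over all arrays, but the same 4 control arrays and curcumin arrays 1 and 2 enter both. This closeness therefore does not test an effect of the slide range. In this fit, which has 2 curcumin arrays fewer, only Col18a1 passed (adjusted p = 0.0303), and the other 6 had adjusted p-values of 0.0815 to 0.154. With the range as a block, Col18a1 (adjusted p = 0.0137) and Col1a1 (adjusted p = 0.0457) passed among the 7, and Col2a1 passed as well. The range apart held no control array, so the block fit gave the same differences as the shared range. There, curcumin arrays 3 and 4 added only to the estimate of the variance.

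**Figure D1:**
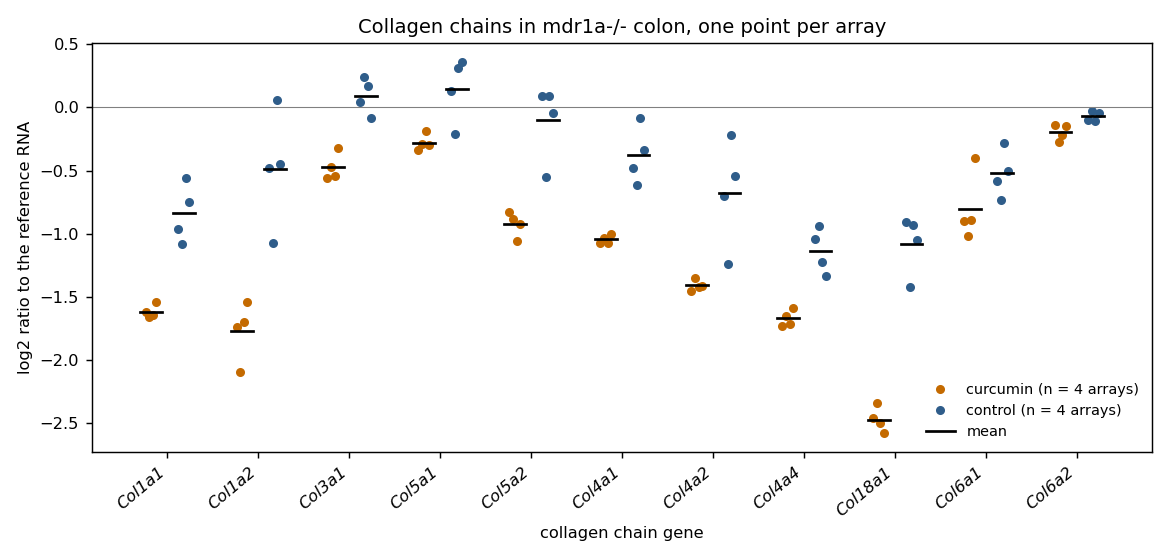
Log2 ratio to the reference RNA (vertical axis) of 11 collagen chain genes (horizontal axis), with 1 point for each of the 4 curcumin arrays (left, orange) and the 4 control arrays (right, blue) and a bar at the mean. For Col18a1, Col1a1, Col1a2, Col3a1, Col5a2, Col4a1, Col4a2, Col4a4 and Col6a2 every curcumin point lies below every control point, while the groups overlap for Col5a1 and Col6a1.

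Because Col1a2, Col3a1 and Col18a1 fell, the bases upstream of their starts are shown to let a reader see which promoter elements stand there. Sequences are those of RefSeq (GRCm38.p6), 250 bases before each annotated start, 5′ to 3′ on the strand of the gene. Capitals mark 4 motifs searched on both strands: CCAAT, the CCAAT box read by NF-Y, GGGCGG, the GC box read by Sp1, TATAAA, the TATA box, and CAGACA, a form of the CAGA element read by SMAD proteins below the TGF-beta receptor. No motif overlapped another in these windows. Col18a1 has 2 annotated starts, and both are given.
Col18a1, start 1, chr10:77166531-77166780, minus strand: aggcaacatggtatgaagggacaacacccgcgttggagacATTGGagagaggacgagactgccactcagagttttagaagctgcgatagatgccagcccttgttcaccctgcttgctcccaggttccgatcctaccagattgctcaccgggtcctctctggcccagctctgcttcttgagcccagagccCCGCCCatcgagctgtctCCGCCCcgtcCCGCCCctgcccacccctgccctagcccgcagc
Col18a1, start 2, chr10:77113706-77113955, minus strand: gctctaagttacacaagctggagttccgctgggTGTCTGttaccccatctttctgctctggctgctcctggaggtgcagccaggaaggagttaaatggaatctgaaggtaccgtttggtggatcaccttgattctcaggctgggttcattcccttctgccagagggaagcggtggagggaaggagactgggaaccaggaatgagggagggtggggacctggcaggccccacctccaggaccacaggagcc
Col1a2, chr6:4505368-4505617, plus strand: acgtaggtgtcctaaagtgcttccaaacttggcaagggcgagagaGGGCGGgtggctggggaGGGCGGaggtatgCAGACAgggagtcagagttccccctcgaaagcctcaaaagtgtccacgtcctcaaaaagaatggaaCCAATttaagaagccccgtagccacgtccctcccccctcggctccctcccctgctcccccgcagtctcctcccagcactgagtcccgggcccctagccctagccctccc
Col3a1, chr1:45311288-45311537, plus strand: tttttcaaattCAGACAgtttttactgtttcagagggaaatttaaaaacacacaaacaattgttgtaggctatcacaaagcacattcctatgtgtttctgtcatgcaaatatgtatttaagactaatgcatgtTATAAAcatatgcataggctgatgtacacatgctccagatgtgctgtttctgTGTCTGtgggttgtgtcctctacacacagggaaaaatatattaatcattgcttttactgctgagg

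The windows differed in make-up. The window at the first start of Col18a1 held 3 GC boxes and 1 CCAAT box, that of Col1a2 held 2 GC boxes, 1 CCAAT box and 1 CAGA element, and that of Col3a1 held 1 TATA box and 2 CAGA elements. Among the 33 windows of 31 tested collagen genes, a GC box stood in 21 (63.6%), a CCAAT box in 12 (36.4%), a CAGA element in 9 (27.3%) and a TATA box in 4 (12.1%). Over all 32851 windows the shares were 32.7% for the GC box, 33.8% for the CCAAT box, 17.1% for the CAGA element and 12.4% for the TATA box. Of the 6 windows of the 5 called genes that have an entry, 3 held a CCAAT box, 2 a GC box, 3 a CAGA element and 1 a TATA box. A match describes letters in the window and does not show binding.

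Among the 11 fibrillar collagens 4 fell and none rose, where 2.63% of all measurements fell. Their median difference was -0.43, beside -0.02 over all measurements. With the best covered probe of each gene in place of the average, the fibrillar median was -0.13. Where probes tied in coverage, as those of Col1a1, Col5a1 and Col5a3 did, the one with the lowest feature number was taken. The choice among tied probes was therefore arbitrary. Col1a2, which encodes the second chain of type I collagen, had log ratios of -1.74, -2.09, -1.70 and -1.54 in curcumin mice, against -0.48, -1.07, 0.06 and -0.45 in control mice. The groups did not overlap, and control array 2 lay nearest to the curcumin arrays. The difference was -1.28 (SE 0.22, adjusted p = 0.0137), so that the level was 2.43-fold lower with curcumin.

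Col1a1, the main chain of type I collagen, had log ratios of -1.62, -1.66, -1.64 and -1.54 in curcumin mice, against -0.96, -1.08, -0.56 and -0.75 in control mice. Every curcumin array lay below every control array, and the curcumin values were close together (SD 0.05, n = 4) beside the control values (SD 0.23, n = 4). The difference was -0.78 (SE 0.11, adjusted p = 0.00723), or 1.71-fold lower.

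Col3a1, the chain of the thinner type III fibrils found beside type I in the gut wall, had log ratios of -0.56, -0.47, -0.54 and -0.32 in curcumin mice, against 0.04, 0.24, 0.17 and -0.08 in control mice. In this average of probes control array 2 was the highest of all, unlike in Col1a1 and Col1a2. In the single Col3a1 probe that fell, control array 2 was instead the lowest control, at -0.63 beside -0.55, 0.04 and -0.28. A cDNA probe of Col3a1 had no value on curcumin array 3 and control array 4, so the averages there rest on fewer probes. The difference was -0.56 (SE 0.09, adjusted p = 0.0125), or 1.48-fold lower.

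Col5a2 of type V collagen had log ratios of -0.83, -0.88, -1.06 and -0.92 in curcumin mice, against 0.09, -0.55, 0.09 and -0.04 in control mice. The groups did not overlap, and control array 2 was again the lowest control. The difference was -0.82 (SE 0.14, adjusted p = 0.0147), or 1.77-fold lower. Its partner chain Col5a1 had -0.34, -0.29, -0.19 and -0.30 in curcumin mice, against 0.13, -0.21, 0.31 and 0.36 in control mice. Control array 2 lay among the curcumin values of Col5a1, and the difference of -0.43 did not pass (SE 0.12, adjusted p = 0.0902). Without that array the Col5a1 difference was -0.55 and passed (adjusted p = 0.0114). With any other single array left out Col5a1 did not pass (adjusted p = 0.141 to 0.21).

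Col2a1, the cartilage collagen, had a difference of -0.53 that did not pass (SE 0.14, adjusted p = 0.0757) although its groups did not overlap. A cDNA probe of Col2a1 had no value on curcumin array 2, so the average there rests on fewer probes. The remaining fibrillar genes had small differences that did not pass: -0.20 for Col11a2, -0.14 for Col5a3, -0.03 for Col27a1, -0.02 for Col24a1 and -0.01 for Col11a1. For Col11a1, which encodes a minor fibrillar chain of cartilage, the 95% interval ran from -0.16 to 0.15. For Col27a1 it ran from -0.19 to 0.14, so differences the size of that in Col1a1 lay outside both intervals. These are intervals of the averages and do not cover disagreement between probes, which had -0.13 and 0.12 in Col11a1.

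**Figure D2:**
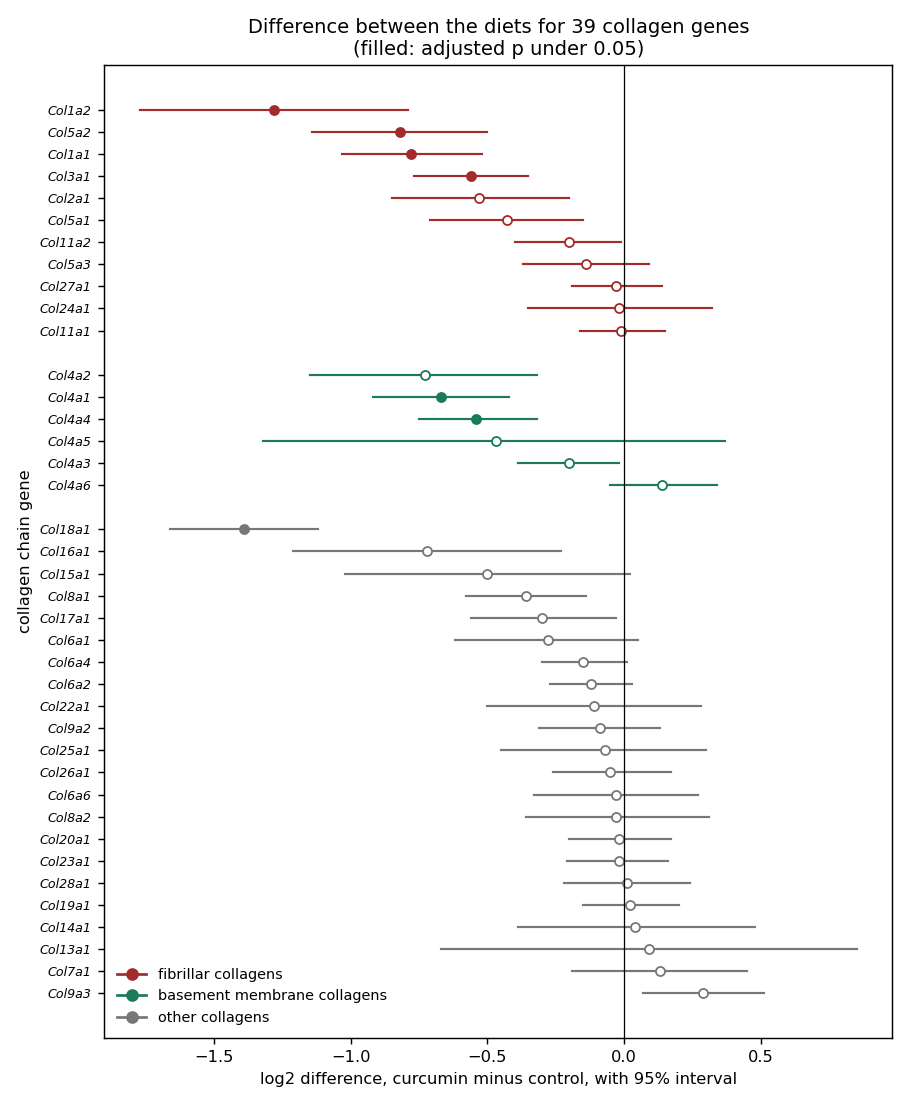
Log2 difference, curcumin minus control, with its 95% interval (horizontal axis) for the 39 tested collagen genes (vertical axis), in 3 blocks by class, with filled points where the adjusted p was under 0.05. The filled points are 4 fibrillar genes, 2 basement membrane genes and Col18a1 among the others, all to the left of 0.

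Of the 6 collagen IV chains 2 fell and none rose, where 2.63% of all measurements fell. Their median difference was -0.50. The genes Col4a1 and Col4a2 are neighbours on opposite strands that point away from each other, and the RefSeq windows around their starts, each 300 bases long, share 78 bases (chr8:11312777-11312854, GRCm38.p6). Col4a1 had log ratios of -1.07, -1.03, -1.07 and -1.0 in curcumin mice, against -0.48, -0.61, -0.08 and -0.34 in control mice. The groups were clearly apart, with a difference of -0.67 (SE 0.11, adjusted p = 0.0126), or 1.59-fold lower.

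Col4a2, whose product joins that of Col4a1 in the common collagen IV trimer, had -1.45, -1.35, -1.42 and -1.41 in curcumin mice, against -0.70, -1.24, -0.22 and -0.54 in control mice. The groups did not overlap either, but control array 2 came close to the curcumin arrays and the control values spread widely (SD 0.43, n = 4). The difference was -0.73 and did not pass (SE 0.18, adjusted p = 0.0573). Without control array 2 the Col4a2 difference was -0.92 and passed (adjusted p = 0.00475). With any other single array left out Col4a2 did not pass (adjusted p = 0.0716 to 0.144). The within-array gap between Col4a1 and Col4a2 was 0.36 ± 0.04 in curcumin mice and 0.30 ± 0.22 in control mice (SD, n = 4 each).

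The chains Col4a3, Col4a4 and Col4a5 form a second trimer, best known from the kidney glomerulus, where its loss causes Alport syndrome. Col4a4 had log ratios of -1.73, -1.65, -1.71 and -1.59 in curcumin mice, against -1.04, -0.94, -1.22 and -1.33 in control mice. No value of Col4a4 overlapped between the groups, and the difference was -0.54 (SE 0.10, adjusted p = 0.0169), or 1.45-fold lower. Its neighbour Col4a3 had -0.86, -1.10, -1.04 and -1.08 in curcumin mice, against -0.80, -0.81, -0.73 and -0.93 in control mice, with a difference of -0.20 that did not pass (SE 0.08, adjusted p = 0.223). Col4a5 scattered widely, between -1.04 and 0.11 in curcumin mice and between -0.87 and 0.92 in control mice (difference -0.47, SE 0.37, adjusted p = 0.578). Col4a6, the 1 collagen IV gene with a positive difference, had 0.14 (SE 0.08, adjusted p = 0.424).

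Among the 22 other collagens 1 fell and none rose, with a median difference of -0.06. Over all measurements 2.63% fell, and 1 gene of 22 is near that share. The 1 that fell was Col18a1, with the largest difference of any collagen gene tested. Its log ratios were -2.46, -2.34, -2.50 and -2.58 in curcumin mice, against -0.91, -1.42, -0.93 and -1.05 in control mice. The lowest control value lay well above the highest curcumin value of Col18a1, and the difference was -1.39 (SE 0.12, adjusted p = 0.000929), or 2.63-fold lower. Col15a1, the other multiplexin, a close relative of Col18a1 found around vessels and muscle, had values between -0.49 and -0.14 in curcumin mice and between -0.31 and 0.75 in control mice. The groups overlapped for Col15a1, and its difference of -0.50 did not pass (SE 0.23, adjusted p = 0.289).

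Collagen VI, whose chains make the beaded filaments around cells, did not pass in any of its 4 tested genes. Col6a1 had log ratios of -0.90, -1.02, -0.89 and -0.40 in curcumin mice, against -0.58, -0.73, -0.28 and -0.50 in control mice. The groups overlapped through curcumin array 4, and the difference was -0.28 (SE 0.15, 95% interval -0.62 to 0.05, adjusted p = 0.364). Col6a2 had -0.14, -0.27, -0.22 and -0.15 in curcumin mice, against -0.10, -0.03, -0.11 and -0.04 in control mice. Its groups stood apart by little, and its difference was -0.12 (SE 0.07, 95% interval -0.27 to 0.03, adjusted p = 0.387). For Col6a4 and Col6a6 the differences were -0.15 and -0.03.

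The fibril-associated collagens, which sit on the surface of fibrils, had 7 tested genes and a median difference of -0.02. Col16a1 had the largest, with log ratios of 0.32, 0.46, -0.07 and -0.13 in curcumin mice, against 0.72, 0.40, 1.41 and 0.94 in control mice. Control array 2 lay within the curcumin range, and the difference of -0.72 did not pass (SE 0.22, adjusted p = 0.102). Without that array the Col16a1 difference was -0.88 and passed (adjusted p = 0.0492). With any other single array left out Col16a1 did not pass (adjusted p = 0.103 to 0.252). Col14a1, a fibril-associated collagen of dense connective tissue, had a difference of 0.04 (SE 0.19, adjusted p = 0.938). Col9a3, of a cartilage collagen, was the 1 collagen gene higher with curcumin without overlap, at 0.33, 0.15 and 0.22 on the 3 curcumin arrays with a value against -0.12, 0.09, 0.01 and -0.19 on the control arrays (difference 0.29, SE 0.10, adjusted p = 0.151).

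The short-chain network collagen Col8a1, made by vessel walls, had log ratios of -0.37, -0.56, -0.36 and -0.50 in curcumin mice, against -0.13, -0.26, 0.13 and -0.08 in control mice. Its groups did not overlap, but the difference of -0.36 did not pass (SE 0.10, adjusted p = 0.0739). Without control array 2 the Col8a1 difference was -0.42 and passed (adjusted p = 0.0471). With any other single array left out Col8a1 did not pass (adjusted p = 0.11 to 0.181). The partner of Col8a1, Col8a2, had -0.03. Among the transmembrane and anchoring collagens of epithelium, Col17a1, of the hemidesmosome, had -0.30 (SE 0.12, adjusted p = 0.218) and Col7a1, of the anchoring fibril, had 0.13 (SE 0.14, adjusted p = 0.689). The remaining genes of the class, Col22a1, Col9a2, Col25a1, Col26a1, Col20a1, Col23a1, Col28a1, Col19a1 and Col13a1, lay between -0.11 (Col22a1) and 0.09 (Col13a1).

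**Figure D3:**
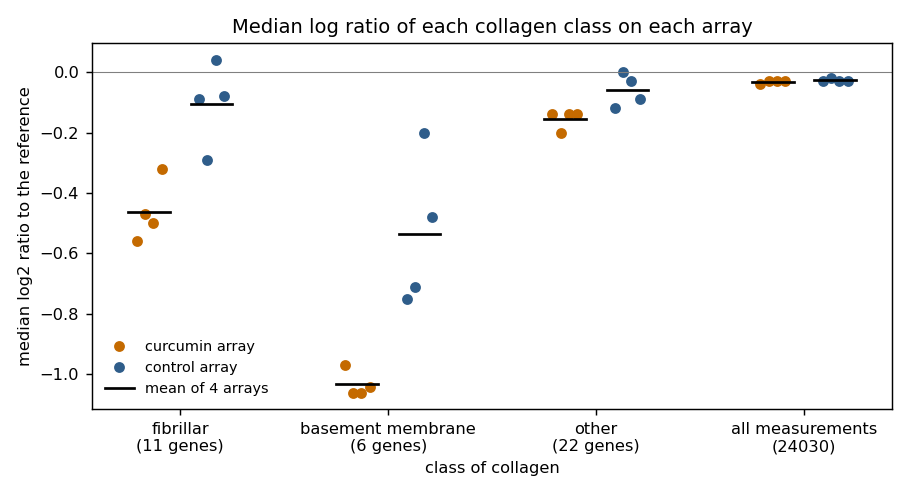
Median log2 ratio to the reference (vertical axis) over the fibrillar, basement membrane and other collagens and over all measurements (horizontal axis), with 1 point per curcumin array (left, orange), 1 per control array (right, blue) and a bar at the mean of 4 arrays. The fibrillar and basement membrane medians of the curcumin arrays lie below those of the control arrays, by more than for the other collagens, and all measurements stay near 0.

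Read by class on each array, the median of the 11 fibrillar genes was -0.56, -0.47, -0.50 and -0.32 on the curcumin arrays, against -0.09, -0.29, 0.04 and -0.08 on the control arrays. The median of the 6 collagen IV genes was -0.97, -1.06, -1.06 and -1.04 on the curcumin arrays, against -0.75, -0.71, -0.20 and -0.48 on the control arrays. The median of the 22 other genes was -0.14, -0.20, -0.14 and -0.14 on the curcumin arrays, against -0.12, 0.00, -0.03 and -0.09 on the control arrays. None of the 3 classes overlapped between the groups, and the shift of the other collagens was the smallest. In the averages of probes, control array 2 was the lowest control array for 5 of the 7 genes that fell. It was the highest for the other 2, Col3a1 and Col4a4, though the lowest in the Col3a1 probe that fell. In all 7 genes the control values spread more than the curcumin values, as they did in 27 of 39 collagen genes (69.2%) and in 60.3% of all measurements.

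Whether chains changed to the same extent was tested on the within-array gap between their log ratios, for 12 gene pairs with an exact two-sided permutation test. With 4 against 4 arrays the smallest p is 0.0286, and after adjustment over the 12 pairs none passed. No pair could pass alone, because a pair at the smallest p passes only when enough other pairs share it. Without control array 2, 7 pairs had an adjusted p of 0.049, among them Col1a1 minus Col1a2 and Col4a1 minus Col4a2. That value follows from 7 pairs lying at the smallest p together and does not set any 1 of them apart. With any other single array left out no pair passed. The gap of Col1a1 over Col1a2 was 0.15 ± 0.19 in curcumin mice and -0.35 ± 0.26 in control mice, a difference of 0.50 (SD, n = 4 each, exact p = 0.0286, adjusted p = 0.0686). That of Col1a2 over Col4a2 was -0.36 ± 0.26 in curcumin mice and 0.19 ± 0.08 in control mice, a difference of -0.55 with the same p-values. The same p-values were reached by Col5a1 over Col5a2 (0.39), Col4a3 over Col4a4 (0.34) and Col1a1 over Col4a1 (-0.11). These gaps use the average of a gene's probes, and the probes of Col1a1 and Col5a1 disagreed. Those of Col1a1 had differences between -1.67 and -0.03, beside -1.28 for the single probe of Col1a2. Those of Col5a1 had -0.86 and 0.00, beside -0.82 for the single probe of Col5a2. Whether these partner chains moved unequally, and in which direction, therefore depends on the probe used. For Col4a1 over Col4a2 the difference was 0.07 (exact p = 0.629), and for Col3a1 over Col4a1 it was 0.10 (exact p = 0.571).

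The probes of a gene did not always give the same answer. Of 22 collagen genes with at least 2 probes tested, 15 had all probes on the same side of 0, and of 67 collagen probes 13 fell and none rose in a fit of single probes, in which 2.38% of 33957 features fell and 4.35% were called in either direction. Col1a1 has 3 probes on RefSeq mRNA records, and their differences were -1.67 (SE 0.23, adjusted p = 0.00579) for the probe that fell most, -0.63 (SE 0.13, adjusted p = 0.0294) for the next and -0.03 (SE 0.08, adjusted p = 0.894) for the last. The average of -0.78 therefore lies between a probe that fell strongly and a probe near 0.

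For Col3a1 the probes gave -1.14 (adjusted p = 0.0201), -0.29 (adjusted p = 0.0975) and -0.20 (adjusted p = 0.645), the last from a cDNA record, so 1 probe carried the call. For Col4a1 they gave -0.96, -0.72 and -0.32, of which the first and the second passed. Both probes of Col18a1 fell, with differences of -1.63 (adjusted p = 0.000648) and -1.16 (adjusted p = 0.00173). Both of Col4a4 were alike at -0.56 and -0.51, but neither passed alone (adjusted p = 0.0522 and 0.118).

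Col1a2 and Col5a2 each rested on 1 tested probe. In 4 genes that did not pass as averages, 1 probe fell. It had -1.24 in Col2a1 (adjusted p = 0.0133), beside probes at -0.11 and 0.00, and -0.86 in Col5a1 (adjusted p = 0.0474), beside 0.00. In Col5a3, another chain of type V collagen, it had -0.44 (adjusted p = 0.0349), beside a probe at 0.15. In Col8a1 both probes were alike, at -0.37 (adjusted p = 0.0431) and -0.36 (adjusted p = 0.185). Where each probe lies on its transcript was not examined here.

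**Figure D4:**
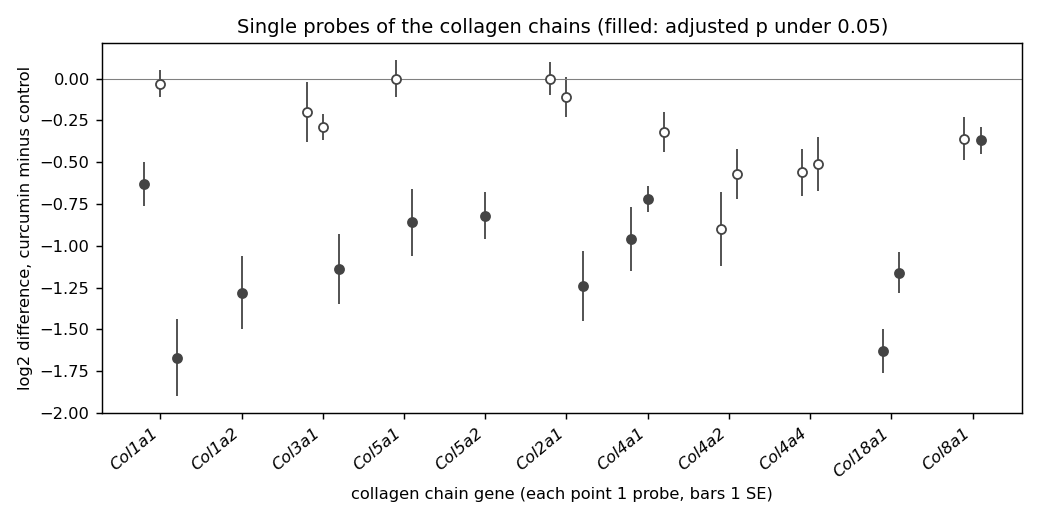
Log2 difference, curcumin minus control (vertical axis), of every tested probe of 11 collagen genes (horizontal axis), with bars of 1 SE and filled points where the adjusted p was under 0.05. Probes of Col1a1 run from -1.67 to -0.03, while both probes of Col18a1 are filled and lie at -1.63 and -1.16.

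The enzymes and partners that make, bind and cut collagen were taken from lists of 9 kinds. Of their 83 tested genes 8 fell and 3 rose, with a median difference of -0.18. Over all measurements 2.63% fell and 2.10% rose, 4.73% together, and these shares stand beside the count of each list below. Hydroxylases and glycosyltransferases, which modify prolines and lysines of the new chain, had 14 tested genes, and none passed. Here the lysyl hydroxylase Plod2 had -0.36 (SE 0.10, adjusted p = 0.0823), Crtap, part of the prolyl 3-hydroxylase complex, -0.32 (SE 0.09, adjusted p = 0.0892), P3h3 -0.38 (SE 0.11, adjusted p = 0.102) and Plod3 -0.18 (SE 0.07, adjusted p = 0.218). None of 6 chaperone and export genes passed, and the smallest p was that of the export coat gene Sec23a, with a difference of 0.31 (SE 0.12, adjusted p = 0.183). The collagen chaperone Serpinh1 had -0.33 (SE 0.20, adjusted p = 0.455).

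Of 7 propeptidases and their enhancers, which trim procollagen, 1 fell and 1 rose. Bmp1, the C-propeptidase, had -0.47, -0.55, -0.50 and -0.51 in curcumin mice, against -0.03, -0.05, -0.11 and -0.23 in control mice (difference -0.40, SE 0.07, adjusted p = 0.0168). Mep1b, the beta subunit of meprin, a brush border protease that can also trim procollagen, rose by 0.54 (SE 0.09, adjusted p = 0.0137). None of 5 crosslinking enzymes passed. Lox, the lysyl oxidase that starts crosslinks, had -1.65, -1.42, -1.70 and -1.79 in curcumin mice, against -0.32, -1.47, -0.08 and -0.58 in control mice. Only control array 2 lay within the curcumin range of Lox, and the difference was -1.03 (SE 0.26, adjusted p = 0.0609). Without that array the Lox difference was -1.31 and passed (adjusted p = 0.00251). Under 17 of 20 alternative settings Lox did not pass.

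Among 12 fibril-regulating proteins 1 fell, Sparc, a collagen-binding glycoprotein, with a difference of -1.04 (SE 0.22, adjusted p = 0.0314). Among 13 partners of collagen IV 2 fell and 1 rose. The laminin chain Lama5 fell with a difference of -0.78 (SE 0.17, adjusted p = 0.0321), and Lamb1 fell with -0.55 (SE 0.13, adjusted p = 0.0499). Lamb3, a chain of the laminin below epithelial cells, rose to 1.58 ± 0.31 in curcumin mice, against 0.70 ± 0.18 in control mice (SD, n = 4 each; difference 0.88, SE 0.16, limma adjusted p = 0.0162).

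Of 8 collagen receptors 1 fell, Lair1, an inhibitory receptor of leukocytes (-0.65, SE 0.11, adjusted p = 0.012). Of 6 collagenases 2 fell: Mmp13 (-1.33, SE 0.18, adjusted p = 0.00497), which cuts fibrillar collagen, and its membrane-bound activator Mmp14 (-0.98, SE 0.11, adjusted p = 0.00229). Of 12 genes of TGF-beta and related fibrogenic signals, the receptor Tgfbr2 fell by 0.44 (SE 0.07, adjusted p = 0.0106) and the growth factor Pdgfa rose by 0.71 (SE 0.11, adjusted p = 0.008). With the best covered probe in place of the average, the Tgfbr2 difference was 0.01 (adjusted p = 0.958), the Mep1b difference 0.11 (adjusted p = 0.743) and the Mmp14 difference -0.50, and none of these 3 passed.

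**Figure D5:**
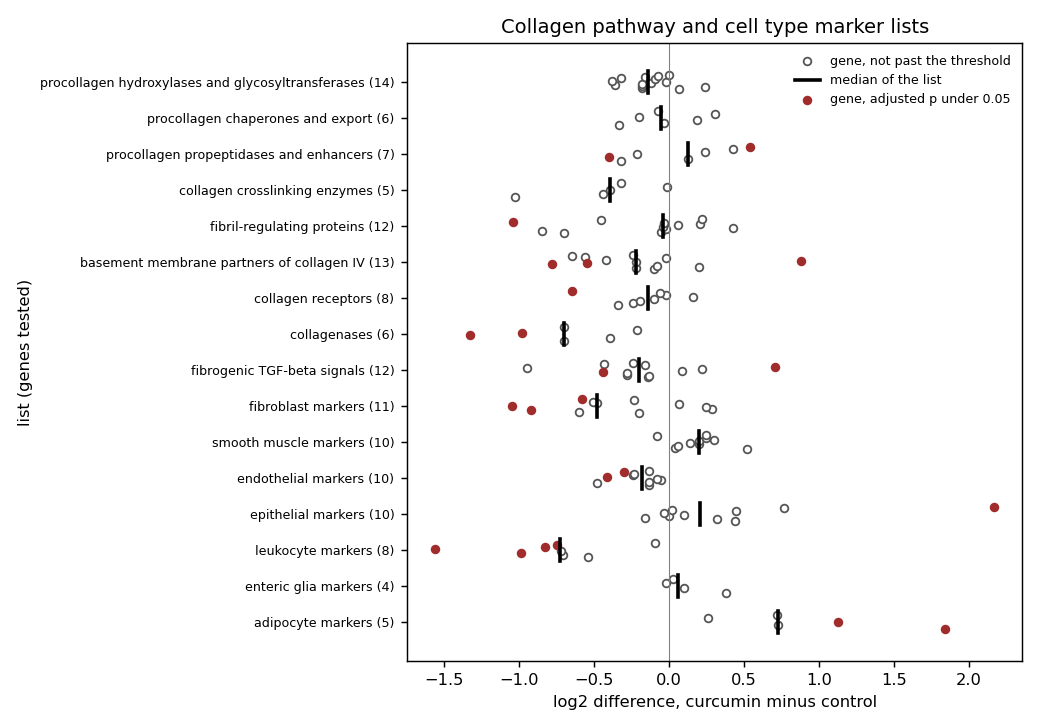
Log2 difference, curcumin minus control (horizontal axis), of each tested gene of 9 collagen pathway lists and 7 cell type marker lists (vertical axis, number tested in brackets), with filled points where the adjusted p was under 0.05 and a bar at the median of each list. The fibroblast and leukocyte medians lie at -0.48 and -0.73, the smooth muscle median at 0.20 and the adipocyte median at 0.73.

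Some markers of several cell types also differed between the diets, in either direction, and their part in the result was not tested. Over all measurements 2.63% fell and 2.10% rose. Of 11 fibroblast markers 3 fell and none rose: Vim (-1.05, SE 0.15, adjusted p = 0.00716), Thy1 (-0.92, SE 0.19, adjusted p = 0.0286) and S100a4 (-0.58, SE 0.11, adjusted p = 0.0207). All 3 are also expressed by leukocytes, Thy1 by mouse T cells. With the best covered probe in place of the average, Thy1 had -0.64 and did not pass (adjusted p = 0.0902). Over the whole fibroblast list 8 differences lay below 0 and 3 above, the highest at 0.29. The array medians of the fibroblast list ran from -0.68 to -0.49 in the curcumin group and from -0.29 to 0.11 in the control group. Of 8 leukocyte markers 4 fell, with array medians of 0.14 to 0.60 in the curcumin group and 0.88 to 1.28 in the control group. They were Tyrobp (-1.56, adjusted p = 0.00484), Laptm5 (-0.99, adjusted p = 0.0103), Fcer1g (-0.83, adjusted p = 0.0405) and Itgb2 (-0.75, adjusted p = 0.022).

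Of 10 smooth muscle markers none passed, and 9 had a difference above 0, with a median of 0.20. Their array medians of 0.04 to 0.36 in the curcumin group overlapped those of -0.30 to 0.34 in the control group. Of 10 endothelial markers 2 fell, namely Eng with a difference of -0.41 (adjusted p = 0.0334) and Esam with -0.30 (adjusted p = 0.0493). Esam did not pass under 16 of 20 alternative settings. The array medians of the endothelial markers were -0.53 to -0.37 in the curcumin group and -0.29 to -0.11 in the control group. Of 10 epithelial markers 1 rose, the chloride exchanger Slc26a3 (2.17, SE 0.21, adjusted p = 0.00175), with array medians of 0.34 to 0.51 in the curcumin group and 0.06 to 0.26 in the control group. These medians rest in part on a log ratio that many features of an array share: 7 of the 10 markers had a probe at it on some array, and 5 had one at it on at least 3 curcumin arrays. Of 5 adipocyte markers 2 rose, Adipoq (1.84, SE 0.28, adjusted p = 0.00814) and Fabp4 (1.13, SE 0.17, adjusted p = 0.00848), with array medians of 0.30 to 1.13 in the curcumin group and -0.32 to -0.02 in the control group. With the shared log ratio set to missing, the Fabp4 difference was 0.74 and did not pass (adjusted p = 0.0747). Of 4 enteric glia markers none passed, and their array medians were -0.04 to 0.17 in the curcumin group and -0.14 to 0.13 in the control group. No collagen probe was at the shared log ratio.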

How the data were processed

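Total RNA of the colon was labelled and hybridised to 2-colour arrays, per the labels' protocols. The authors deposited normalized log2 ratios, made with limma per the submitters' processing notes; version, background correction and direction are not given in the sources used here. Missing values made up 11.4% to 23.8% of 44290 features per array; the number of arrays limits the precision, and SEs do not cover disagreement between probes. Probes were named from the platform annotation (32042 features with 1 symbol, 47 with several, 12201 with none listed; 31906 matched RefSeq by gene identifier). Probes lacking a value on more than 1 array of either diet group were dropped, and those left were averaged per gene, as the rule for the members asks; the fixed plan named averaging ahead of the filter, and that order was run as an alternative chosen after seeing the data. The test was limma's moderated test (version 3.58.1, R 4.3.3; lmFit and eBayes without covariate), curcumin minus control, with p-values adjusted over 24030 measurements; the fit was tested on simulated data. Figures used Python 3.11.15 and matplotlib 3.10.9. Of 184 listed companion and marker symbols 168 were in the table. Members and lists were chosen with earlier results of these data known. Genes named are every tested collagen, with its difference or within a range (those called in full), a set of main chains with values on each array, and up to 4 genes per list, by largest change or smallest p; fuller values of Col2a1, Col8a1, Col9a3, Col14a1, Col15a1, Col16a1 and Col17a1, and those of Col4a3, Lox and Bmp1, were picked once results were in view. The samples are separate mice per the design text. Alternatives covered normalization, filters, probe rule, slide range, array weights, the replicate number as a block and leaving out each array.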

Additional observations from a re-analysis of the deposited data

Results flagged for a closer look

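Among 81 sets of 4 arrays examined, 4 held an array far from the other 3, and chance alone flags about 1 set in 20. Col13a1, a transmembrane collagen, had 0.01 on curcumin array 2, where the other curcumin arrays had 1.15 to 1.24. Col22a1 had -0.46 on control array 2, where the other control arrays had -1.17 to -1.07. Col23a1 had -0.09 on control array 1, beside 0.11 to 0.12 on the others. The median of the other collagens was -0.20 on curcumin array 2 and -0.14 on each of the other curcumin arrays. None of the 7 genes that fell was among them.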

How the results depend on the processing

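The 7 genes that fell all remained called under median centring, quantile normalization, values on at least 2 arrays per group, the shared log ratio set to missing and probes averaged before the filter (an order chosen after seeing the data, under which Col14a1 had 0.67). The number of collagen genes that fell was 3 with the slide range as a block, 1 within the shared range and 12 with array weights, and 6 to 11 when 1 array was left out, with 11 without control array 2. The number of all measurements called was 330 with the slide range as a block, 168 within the shared range, 1814 with array weights, 743 with the replicate block and 487 to 1364 with 1 array left out (526 without curcumin array 1, 751 without 3, 487 without 4, 687 without control array 1 and 527 without 4). Companion genes that fell numbered 5 after quantile normalization, 5 with the best covered probe, 2 and 1 under the slide range settings, 13 with array weights, 3 with the replicate block and 4 to 15 with 1 array left out; those that rose numbered 0 under both slide range settings. Of the calls over all measurements 44.3% were higher as reported, 54.4% after quantile normalization, 51.5% with the slide range as a block, 60.7% within the shared range and 39.1% to 51% with 1 array left out. Sparc, Lama5, Lamb1, Thy1, Eng, Esam and Fcer1g each lost the call without any 1 of at least 5 arrays, S100a4 and Itgb2 without 3 or 4, and Lamb3 and Bmp1 without curcumin array 4. With the best covered probe per gene, the lowest-numbered one on ties, the fibrillar median was -0.13. Under that rule Col3a1 and Col4a4 lost the call, Col5a3 gained it, and Col5a1 (0.00) and Tgfbr2 (0.01) left their direction. The fibrillar median ran from -0.51 to -0.36, the basement membrane median from -0.61 to -0.34 and the median of the other collagens from -0.12 to -0.01 with 1 array left out, and the last was -0.11 within the shared slide range. Without curcumin array 1 Col4a4 lost the call, and without curcumin array 4 or control array 4 Col5a2 did. Col14a1 ran from -0.08 to 0.24. The labels give no pairing of the mice by replicate number. Deviations of same-numbered arrays correlated at 0.161, 0.195, -0.0113 and -0.0198, and those of differently numbered control and curcumin arrays at -0.285 to 0.207. So few correlations cannot exclude a pairing. With the replicate block 7 collagen genes fell, 6 of them shared with the main fit. The causes of these changes were not tested.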
